A study of Drosophila melanogaster with 4 samples.

Results

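The bithorax complex of Drosophila melanogaster holds the 3 Hox genes Ubx, abd-A and Abd-B, and its H3K27me2 pattern was read from lists of enriched regions, called clusters here. H3K27me2 is histone H3 dimethylated at lysine 27. The members are these 3 genes, the stretches between and beside them in the window 3R 12480000 to 12810000 (FlyBase release 5), and flanks of 300 kb on each side. Gene spans are approximate release 5 positions: Ubx from 12482500 to 12560300, abd-A from 12632900 to 12655800 and Abd-B from 12752900 to 12798000. Clusters touching the window numbered 14 of 15589 in ChIP replicate 1, 0 of 15021 in ChIP replicate 2 and 20 of 16862 in the authors' combined list.

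The study sequenced chromatin immunoprecipitated (ChIP-seq) with the antibody Ab24684 against H3K27me2, from nuclei of wild-type larvae of instar 3 of Oregon-R-modENCODE, an Oregon-R strain. It has 1 group of 2 ChIP samples and 1 group of 2 input samples, which share strain, stage and genotype. No list was used for the inputs. The labels do not say whether the replicates are separate collections of larvae, and their spread may be technical. Whole larvae hold many cell types, and the cells in which a Hox gene is on cannot be told apart from those in which it is off. Read depth is unknown, so a stretch without a cluster is one in which none was called and not one shown to lack the mark.

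Hox genes encode homeodomain transcription factors that give segments along the body axis their identity. In flies Ubx acts in the posterior thorax and first abdominal segment, abd-A in the abdomen and Abd-B in the most posterior segments. Each gene is kept off outside its domain by Polycomb proteins. Polycomb repressive complex PRC2, through its enzyme E(z), sets mono-, di- and trimethylation on H3K27. The bithorax complex is a classic example of a long domain of the trimethylated form, which was not measured here.

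The clusters left most of the complex empty. They covered 8.35% of the window in replicate 1, 0% in replicate 2 and 9.80% for the combined list, a replicate mean of 4.17% ± 5.90 (SD, n = 2). In the same lists the flanks together were covered to 48.1%, 38.7% and 55.7%. The rest of 3R, outside window and flanks, was covered to 48.7%, 41.5% and 57.7%. Both replicates therefore had a window far below its flanks and flanks near the level of the arm. The difference between window and flanks was -39.8 percentage points in replicate 1 and -38.7 in replicate 2 (mean -39.2 ± 0.793, SD of these differences, n = 2). With n = 2 an exact permutation test that flips signs (two-sided) reaches p = 0.5 at the lowest, and no test was made. Moreover, the complex was examined with its low coverage already known, so these values are a description.

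**Figure D1:**
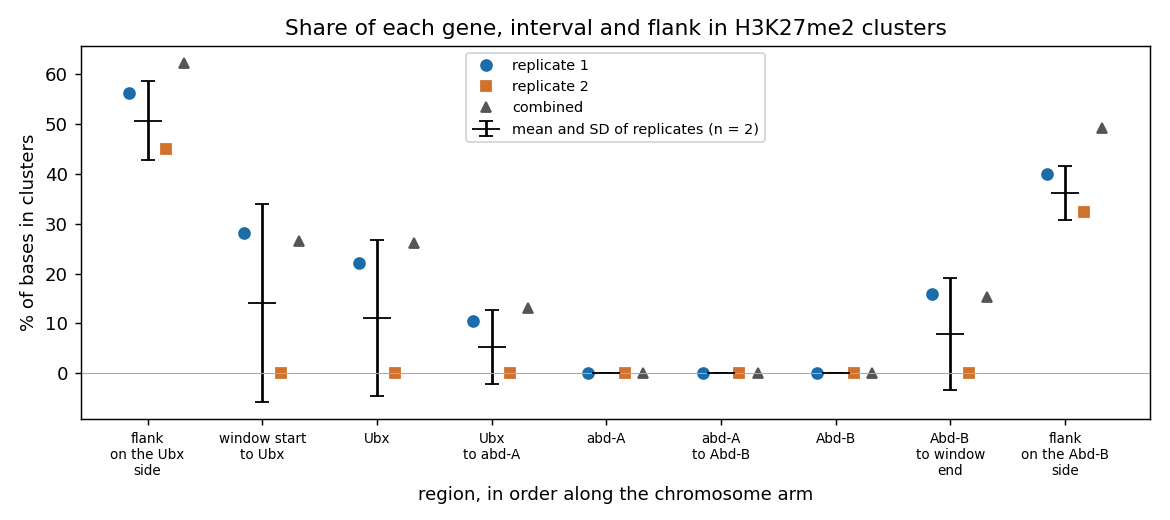
Share of bases in H3K27me2 clusters (y axis, percent) for each gene, interval and flank in order along 3R (x axis). Circles are replicate 1, squares replicate 2 and triangles the combined list. Bars give the mean and SD of the replicates (n = 2) and run below 0 where the SD exceeds the mean. The stretch from abd-A to Abd-B lies at 0 in all lists, while both flanks lie between 32.3% and 62.3%.

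In replicate 1 and the combined list the members did not share one pattern, while in replicate 2 all 3 genes were at 0%. Ubx was covered to 22.2% in replicate 1, 0% in replicate 2 and 26.2% for the combined list (replicate mean 11.1% ± 15.7, SD, n = 2). By contrast, abd-A and Abd-B were covered to 0% in all 3 lists, and no cluster touched either gene. The 72.6 kb between Ubx and abd-A were covered to 10.5% in replicate 1, 0% in replicate 2 and 13.1% for the combined list. The 97.1 kb between abd-A and Abd-B held no cluster in any list. Clusters inside the complex therefore lay on the Ubx side of abd-A, up to 3.23 kb from that gene in replicate 1, apart from a single one beyond Abd-B. They were present in replicate 1 and the combined list, and replicate 2 had none.

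Each of these shares was set against 3R windows of the same width, placed at every 10 kb and not touching the complex. Such windows overlap each other and serve as a description without a p-value. Of 2692 windows of the width of the complex, 0 were covered as little as the complex in any of the 3 lists (0% in each). Their lowest values were 18.4%, 2.44% and 26.3%, and their medians were 48.7%, 42.2% and 58.7%. In replicate 2 the lowest other window thus came close to the complex. The lowest window in replicate 1 lay from 2600001 to 2930001, and the lowest in replicate 2 from 2610001 to 2940001, at nearly the same place. Coverage in the first of these was 18.4% in replicate 1 and 2.86% in replicate 2.

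**Figure D2:**
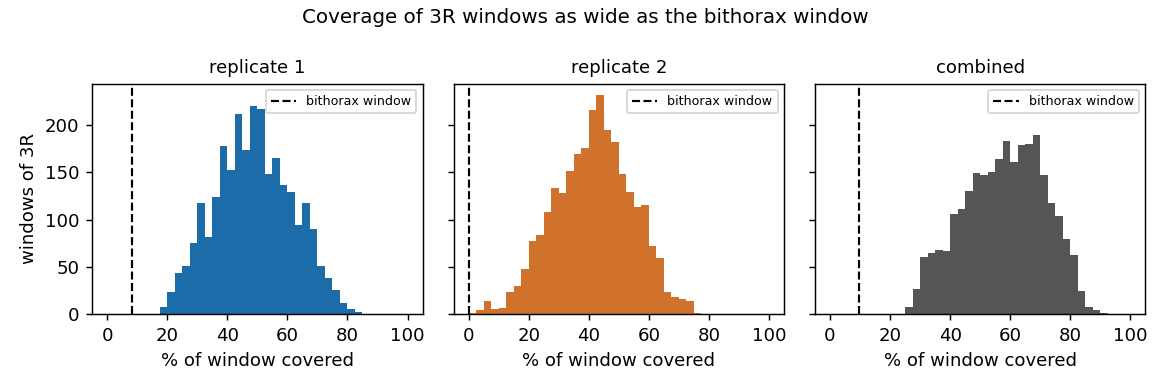
Distribution of coverage over 3R windows as wide as the bithorax window. The x axis is the percent of a window in clusters and the y axis the number of windows, with 1 panel per list. The dashed line marks the bithorax window at 8.35%, 0% and 9.80%, to the left of every other window in its list.

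For single genes the same comparison was less extreme. Among windows as wide as abd-A, 3.74% in replicate 1, 10.2% in replicate 2 and 2.94% for the combined list held no cluster either. For Abd-B, with its longer span, the shares were 0.4%, 3.31% and 0.4%. For Ubx, 9.26% of windows in replicate 1, 0.656% in replicate 2 and 7.95% for the combined list were covered no more than the gene. Coverage of Ubx in replicate 1 was thus low for the arm but not at its bottom, and bare windows as wide as abd-A also occurred elsewhere on the arm. The interval between abd-A and Abd-B was bare in all lists, against 0% of windows of its width in replicate 1, 0.256% in replicate 2 and 0% for the combined list. For the interval between Ubx and abd-A, 1.82%, 0.838% and 1.68% of windows were covered as little.

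The stretch without a cluster around abd-A was the longest of the 5 large arms in each list. In replicate 1 it ran from 12629673 to 12804390 (174.7 kb) and in the combined list from 12629568 to 12804453 (174.9 kb). In replicate 2 it ran from 12455713 to 12829929 and measured 374.2 kb, taking in all 3 genes and reaching into both flanks. On 3R it was the longest of 3582, 3370 and 3478 stretches in these lists, given as replicate 1, replicate 2 and combined. The median stretch measured 1476.5 bp, 1488.5 bp and 1085 bp. The next longest on 3R was 77.4 kb in replicate 1 (12053806 to 12131233), 134.1 kb in replicate 2 (2744535 to 2878656) and 77.3 kb for the combined list (12054154 to 12131405). Mappability was not analysed here, so repeats inside the stretch were not set apart.

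The borders lay closer to gene ends in replicate 1 than in replicate 2. In replicate 1 the last cluster before abd-A, from 12628334 to 12629672, ended 3.23 kb from its low-coordinate end. The first cluster beyond Abd-B, from 12804391 to 12806298, began 6.39 kb from the high-coordinate end of that gene. Both distances exceed the median stretch without a cluster on 3R in that list, 1476.5 bp. The combined list had clusters at both places, 3.33 kb and 6.45 kb from the genes. Replicate 2 had none there, and its nearest clusters to the 3 genes lay 26.8 kb beyond Ubx and 31.9 kb beyond Abd-B. All 3 genes are transcribed toward lower coordinates, so the high-coordinate end of each span was taken as the gene's start. Start sites inside the spans were not examined. Distances from these ends to a cluster of replicate 1 were 1.42 kb for Ubx, 26.1 kb for abd-A and 6.39 kb for Abd-B. In replicate 2 the same distances were 104.6 kb, 174.1 kb and 31.9 kb.

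**Figure D3:**
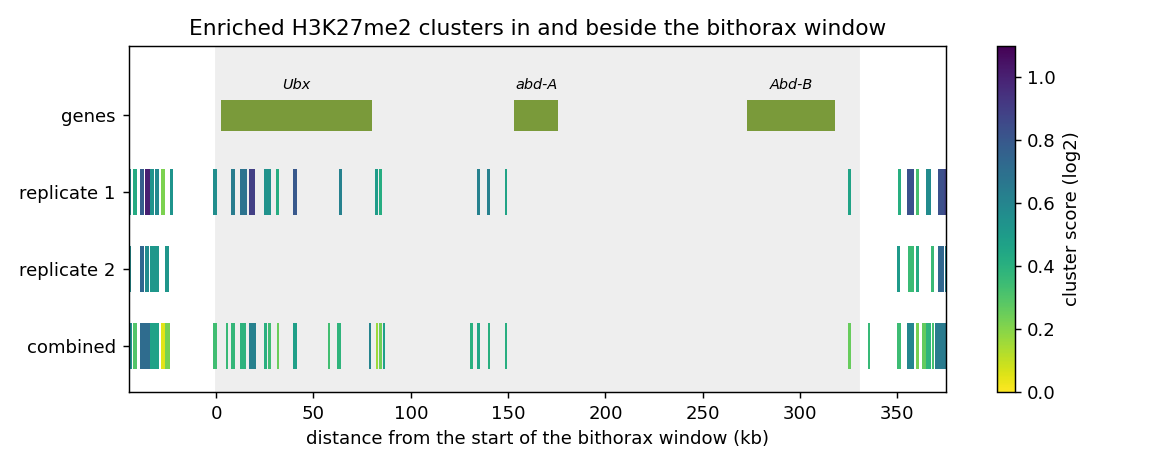
Map of enriched clusters in and just beside the bithorax window (grey), with the distance from the window's start in kb on the x axis and 1 row per list. Each bar is a cluster, coloured by its score (log2), and green bars are the genes. Replicate 1 and the combined list have 14 and 20 clusters in the window, most of them over and just beyond Ubx, and replicate 2 has 0.

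Clusters over Ubx were gathered at its low-coordinate side, the end where transcription stops. Replicate 1 had 7 of them, from 1389 to 3559 bp, with scores from 0.42 to 0.89. Of these, 4 were shorter than the 3R median of 2596.5 bp, and 3 were longer. Their median score was 0.64, near the 3R median of 0.65. The score is the authors' own value for each cluster, read here as log2, and serves only to describe and rank clusters within a list. The highest-scored one ran from 12496910 to 12500049 with a score of 0.89, higher than 78.4% of the 3R clusters of that list. It was followed by 12519289 to 12521587 (score 0.80), 12492321 to 12495620 (0.68) and 12487552 to 12489632 (0.64). The others ran from 12542992 to 12544500 (0.62), 12504785 to 12508343 (0.54) and 12510972 to 12512360 (0.42). Ubx was then split into 4 equal pieces, a split chosen after the clusters had been seen. From the low-coordinate end these were covered to 43.8%, 36.3%, 0.967% and 7.76% in replicate 1 and to 50.0%, 32.9%, 6.70% and 14.9% in the combined list. The first 2 pieces therefore carried most of the gene's coverage in both lists, and all 4 were at 0% in replicate 2.

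The combined list placed 11 clusters on Ubx, and 8 of these were touched by a cluster of replicate 1. The other 3 were touched by neither replicate: 12485065 to 12486184 (score 0.36), 12537531 to 12538676 (0.33) and 12558372 to 12559386 (0.60). That last cluster lay 0.914 kb inside the gene's high-coordinate end, where Ubx transcription starts. It measured 1015 bp, shorter than nearly all combined clusters of 3R, of which 1.18% were shorter still. Over the whole window 5 of 20 combined clusters were touched by neither replicate. On the rest of 3R this held for 11% of combined clusters.

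Between Ubx and abd-A the clusters formed 2 small groups with a long gap between them. In replicate 1 the first pair lay just beyond Ubx, from 12561721 to 12563276 (score 0.50) and from 12563651 to 12565165 (0.42). After 48.6 kb without a cluster came 12613776 to 12615687 (0.62), 12619405 to 12620734 (0.62) and 12628334 to 12629672 (0.46). All 5 were shorter and lower in score than the 3R medians of 2596.5 bp and 0.65. The combined list repeated these and added 12565711 to 12566962 (0.48) and 12610650 to 12611814 (0.40), which no replicate touched. In the RefSeq gene table (release 6, used for names and order only) this interval holds the noncoding gene bxd and the protein-coding genes CG31275 and Glut3. The interval between abd-A and Abd-B, bare in all lists, holds the protein-coding gene MSAmiP, the noncoding genes iab4 and iab8 and the microRNA genes mir-iab-4 and mir-iab-8.

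At the outer ends of the window a single cluster stood on each side in replicate 1. On the Ubx side it ran from 12478261 to 12480702 (score 0.56), across the window's edge and 1.80 kb from the gene. On the other side it ran from 12804391 to 12806298 (0.46). The combined list had both, with scores of 0.34 and 0.26. The nearest protein-coding genes are modSP beyond Ubx and VhaM9.7-d beyond Abd-B, by their order in the RefSeq table.

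**Figure D4:**
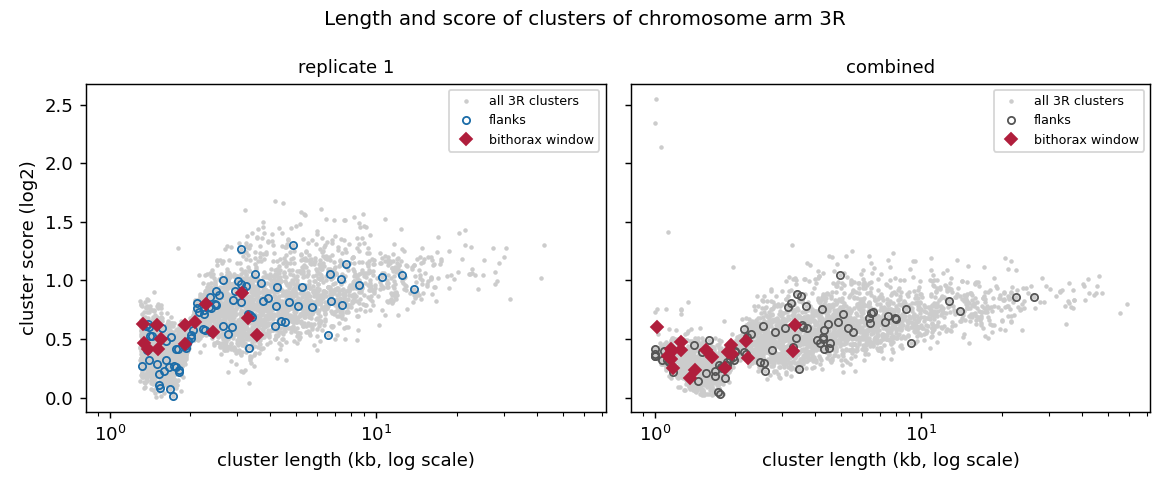
Score (y axis, log2) against length (x axis, kb, log scale) of clusters of 3R in replicate 1 and in the combined list. Diamonds are clusters in the bithorax window, open circles those in its flanks and grey points all 3R clusters. Window clusters reach at most 3559 bp and 3369 bp, while flank clusters reach 13890 bp and 26516 bp.

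As a set, the window clusters were shorter and lower in score than the typical cluster of the arm. In replicate 1 their median length was 1910 bp against 2596.5 bp for 3R, and 11 of 14 were shorter than that median. Their median score was 0.59 against 0.65, and 11 of 14 lay below it. In the combined list 18 of 20 were shorter than the 3R median of 2786 bp, and 16 of 20 scored below the 3R median of 0.46. Their density was 4.24 per 100 kb in replicate 1 and 6.06 in the combined list, against 14.8 and 14 in the flanks. These values average over the bare stretches. Over Ubx alone the density was 9.00 per 100 kb in replicate 1 and 14.1 for the combined list, which is near its flank value. Coverage was not near it: in the combined list Ubx was covered to 26.2% and the flanks to 55.7%.

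The replicates disagreed on every cluster of the window. Replicate 2 touched 0 of the 14 clusters of replicate 1 there, against 78.1% of 3568 clusters on the rest of 3R. Among 3R clusters no longer than the longest of the 14, the share touched was 68.6%. The 14 belonged to an unbroken run of 16 neighbouring clusters without a partner, from 12451824 to 12806298. Of 488 such runs on 3R, whose median held 1 cluster, 1 other had as many, from 2751484 to 2875511. The next held 12, from 17239467 to 17341419. Long runs of this kind thus occurred at other places too. The 1 with as many lay inside the lowest-covered other windows of replicate 1 and replicate 2, so it was not a typical place of the arm. Which genes lie there was not examined. This comparison was added after the values were seen.

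In percentage points, differences as large as those in the complex also occurred elsewhere on the arm. With replicate 2 at 0% in the complex, each difference there equals the coverage in replicate 1 and could not be larger. The shares below therefore cannot show whether a full absence of clusters in replicate 2 was usual. For the whole window replicate 1 exceeded replicate 2 by 8.35 percentage points, and 45.1% of 3R windows of that width differed by at least as much in that direction. For Ubx the difference was 22.2 points, and 6.45% of windows of its width reached it. For the interval between Ubx and abd-A it was 10.5 points, and 33.3% of windows reached it. The median difference was 7.79 points at the width of the complex, since replicate 1 covered more of the arm. The clusters over Ubx therefore rest on replicate 1 and on the combined list, and in replicate 2 alone Ubx was covered to 0%. The combined list belongs to the replicate set and names no sample, so it cannot be taken as independent of replicate 1. Whether depth, scaling of input or larvae differ between the replicates here was not tested.

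Outside the complex the replicates placed clusters much more alike. In both flanks together they shared 203.8 kb, equal to 70.6% of the covered bases in replicate 1 and 87.8% in replicate 2. Over the whole of 3R these shares were 72.3% and 85.0%. Of 89 flank clusters in replicate 1, 66 touched a cluster of replicate 2 (74.2%, 95% Wilson interval 64.2% to 82.1%, which treats clusters as independent). These 89 include the cluster across the window's edge, which was also counted in the window. That cluster was set aside when the flank clusters nearest to the complex were compared. On the Abd-B side the first one began at 12830142 in replicate 1 and at 12829930 in replicate 2, 212 bp apart, and both overlapped. On the Ubx side the last one ran from 12456479 to 12457916 in replicate 1 and from 12453888 to 12455712 in replicate 2. These ended 2204 bp apart and shared no base, so the run of replicate 1 clusters without a partner reached past the window on that side. The combined list had 1 more cluster between Abd-B and this border, from 12814678 to 12815678 (score 0.36).

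**Figure D5:**
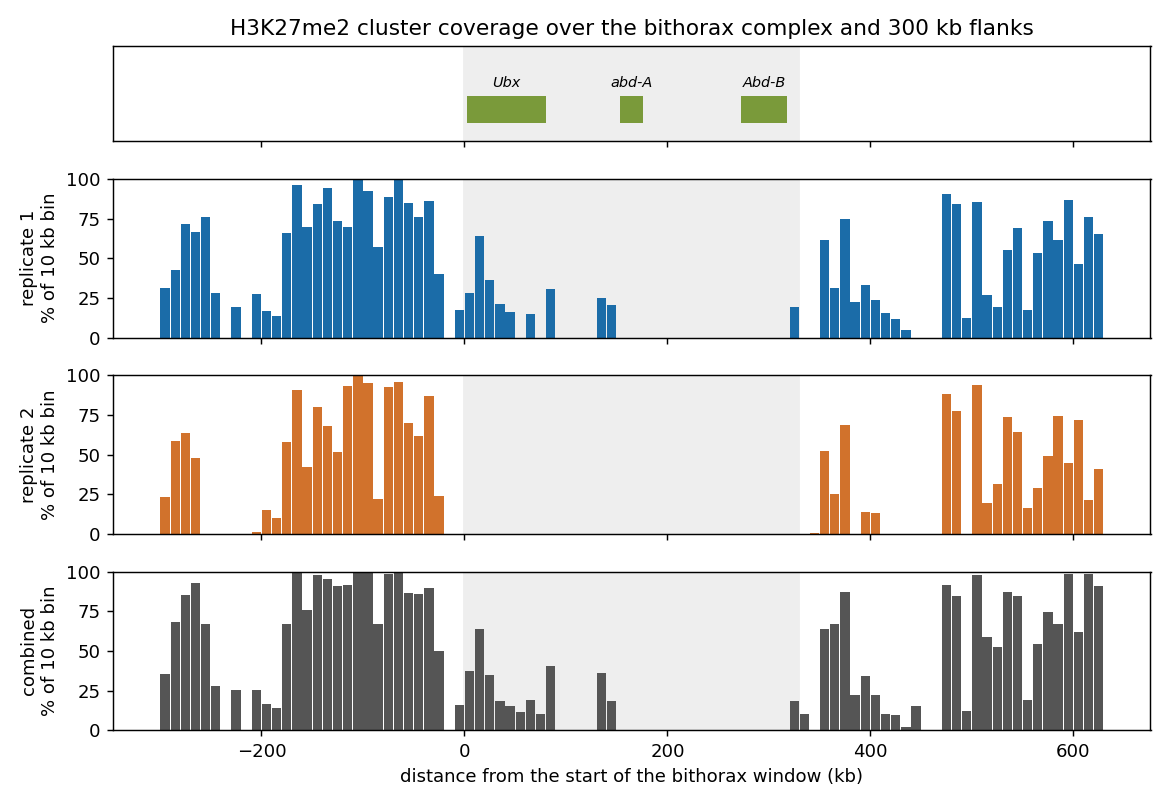
Share of each 10 kb bin in clusters (y axis, percent) over the bithorax window (grey) and its flanks, by distance from the window's start in kb (x axis), with genes above and 1 panel per list. In the window 23, 33 and 21 of 33 bins are at 0 in replicate 1, replicate 2 and the combined list, against 8, 16 and 6 of 60 bins in the flanks.

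The flanks differed from each other and changed along their length. The flank on the Ubx side was covered to 56.3% in replicate 1 and 45.1% in replicate 2, and that on the Abd-B side to 40.0% and 32.3%. Within each replicate the Ubx side was higher, by 16.2 and 12.8 percentage points (mean 14.5 ± 2.42, SD of the differences, n = 2). Neither flank stood at an extreme of the arm. For the Ubx side 69.9% of 3R windows of its width in replicate 1 and 59% in replicate 2 were covered no more, and for the Abd-B side 26.9% and 25.2%.

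On the Ubx side coverage rose quickly with distance from the complex. It was 39.2% ± 6.59 in the 50 kb next to the window, 79.8% ± 6.70 from 50 to 100 kb and 81.4% ± 4.12 from 100 to 150 kb (SD, n = 2 each). It then fell to 47.9% ± 6.44 and, from 200 to 250 kb, to 7.56% ± 10.3, before reaching 48.2% ± 13.3 in the last 50 kb. The longest flank clusters lay in the well covered part, from 12369972 to 12383861 in replicate 1 (13890 bp, score 0.93) and from 12407148 to 12419202 in replicate 2 (12055 bp, 0.78). The longest cluster of the combined list measured 26516 bp, from 12400174 to 12426689 (0.86), and took in that of replicate 2 but not that of replicate 1. The highest scores lay farther out, at 12200555 to 12205436 in replicate 1 (1.31) and at 12200630 to 12204515 in replicate 2 (0.84).

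On the Abd-B side coverage first fell and then rose with distance from the complex. It was 31.4% ± 2.94 in the 50 kb next to the window, 13.3% ± 11.1 and 18.4% ± 0.977 in the next steps, and then 44.9% ± 0.881, 50.0% ± 5.15 and 58.9% ± 11.8 in the outer ones (SD, n = 2 each). The longest cluster there ran from 12950956 to 12961415 in replicate 1 (10460 bp, score 1.03) and from 12980027 to 12985915 in replicate 2 (5889 bp, 0.68). The highest-scored cluster of replicate 1 on this side was the same one, and that of replicate 2 ran from 13078115 to 13080751 (0.84). In the combined list the longest measured 13927 bp, from 12950858 to 12964784 (0.74), and the highest score was 0.89, from 12988520 to 12991924.

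Flank clusters scored close to the arm as a whole. Their median score came to 0.65 in replicate 1, 0.60 in replicate 2 and 0.47 for the combined list, against 0.65, 0.60 and 0.46 over 3R. At or above the 3R median lay 49.4%, 48.1% and 51.2% of them.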

How the data were processed

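The submitters' processing notes name Bowtie 0.12.7, a read aligner, and per the file headers positions are those of FlyBase release 5. Enriched clusters were deposited as a list per ChIP sample and a combined list. Not given in the sources used here are the caller and thresholds, the treatment of input and how lists were combined. The deposited score was read as log2, which is an assumption. In replicate 1, replicate 2 and the combined list, 398, 78 and 246 pairs of distinct scores lay exactly 1 apart (within 1e-09). In each list 0 lay apart by ln 2 or log10 2. Scores stored with few decimals could give the same counts, and a linear scale was not checked, so these counts do not settle the scale.

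Gene spans are approximate. Their lengths differ from the RefSeq release 6 lengths by -3 bp (Ubx), 65 bp (abd-A) and 76 bp (Abd-B). Coverage is the share of bases in clusters typed as enriched. Comparison windows were laid at every 10 kb of 3R. The members, lists and comparisons were chosen with earlier results of these data known. Named clusters are all those touching the window, the nearest beside the genes, and the longest and highest-scored in each flank. Coverage and gap functions were tested on simulated data. Python 3.11.15, numpy 2.4.6, scipy 1.17.1 and matplotlib 3.10.9 were used. Depth is unknown. No sequence is shown, since no genome was used here.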

Additional observations from a re-analysis of the deposited data

How the results depend on the processing

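Leaving out a replicate of 2 moves a mean by less than the SD by construction, so those values say nothing about stability. With either replicate left out, the window was covered to 0% to 8.35%, Ubx to 0% to 22.2%, and the stretch without a cluster measured 174.7 to 374.2 kb. The difference between window and flanks was -39.8 to -38.7 percentage points with either replicate left out. The combined list gave -45.9. It was -26.1 with only clusters scored at least at the list median, -32.8 with clusters of at least 2 kb, -41.8 with clusters closer than 1 kb joined and -36.7 with flanks of 100 kb. Filters lower and joining raises coverage of the flanks by construction. Widening abd-A by 5 kb on each side gave a replicate mean of 2.03% ± 2.88 (SD, n = 2), all of it from a cluster of replicate 1 beside the gene. The interval between Ubx and abd-A was covered to 13.1% in the combined list. The border on the Abd-B side moved to 12842764 in the mean under that score limit. The share of flank clusters of replicate 1 with a partner was 59.6% at a reciprocal overlap of 50%. Under the same score limit Ubx was covered to 3.50% in the mean and the other parts of the window to 0%. No window was covered as little as the complex among 82 laid end to end on 3R or 11675 on all large arms. No paired analysis was possible because a replicate number pairs a ChIP sample with its input, for which no list was used.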
